A study of Rattus norvegicus with 18 samples.

Results

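The 10 genes B2m, Tap1, Tap2, Tapbp, Psmb8, Psmb9, Psmb10, Psme1, Psme2 and Nlrc5 of the major histocompatibility complex (MHC) class I presentation route were followed across the retina and the RPE/choroid, the pigment epithelium and vascular layer behind it, of young, aged and 8-aminoguanine (8-AG) treated aged rats. These members were chosen by name for their place in this route, with earlier results of these data known. All 10 of the 10 listed genes were found, among 32285 genes in the retina table and 32552 in the RPE/choroid table. Bulk RNA-Seq gave 18 libraries from female Fischer 344 rats, with 3 libraries in each of 6 groups. Young rats were 4 months old and untreated. Aged rats were 24 months old and untreated. Treated rats had the same age as the aged ones and drank 8-AG at 5 mg/kg/day for 8 weeks, and every group was of this inbred strain with no transgene. In RPE/choroid 2 of the young and 2 of the aged libraries carry a shared number with the letters L and R, so each pair may come from the same animal. The labels do not say which other libraries come from separate animals, and p-values then measure only the spread between these libraries.

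Class I molecules show fragments of a cell's own proteins at its surface, where cytotoxic T cells and natural killer cells read them. The proteasome cuts proteins into peptides. When interferon acts on a cell, its catalytic subunits Psmb5, Psmb6 and Psmb7 are replaced in newly built particles by Psmb8, Psmb9 and Psmb10, which makes the immunoproteasome, and the activator caps Psme1 and Psme2 are made in larger amounts. The transporter Tap1/Tap2 carries peptides into the endoplasmic reticulum, tapasin (Tapbp) holds the empty class I molecule at the transporter, and beta-2-microglobulin (B2m) is the light chain that every classical class I molecule needs. Nlrc5 is a transactivator of the class I genes. The retina is an immune privileged tissue in which most neurons carry little class I.

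Interferon is known to act on genes through short promoter elements, and the members' promoters are shown so that such letters can be read beside the levels described below. Tap2, Psmb8, Tap1 and Psmb9 follow each other directly on chromosome 20, between RT1-DOb and RT1-DMb. RefSeq promoter entries of build GRCr8 were found for 9 of the members. In the 250 bases before each start, on both strands, the letters GAAANNGAA (an interferon-stimulated response element, ISRE, in short form) and TTCNNNGAA (a gamma-activated site, GAS, in short form) were searched. The ISRE-like letters were in 8.12% and the GAS-like letters in 7.67% of 33469 promoters, and in 6 and 1 of the 9 members. The stretches below run 5′ to 3′ along the gene's strand, with the matching letters in capitals, and a match is a description of letters and not a binding site.
B2m: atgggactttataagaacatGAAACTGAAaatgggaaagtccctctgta
Tap1: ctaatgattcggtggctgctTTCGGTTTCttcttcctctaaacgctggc
Tap2: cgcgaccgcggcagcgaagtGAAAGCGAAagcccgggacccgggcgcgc
Tapbp: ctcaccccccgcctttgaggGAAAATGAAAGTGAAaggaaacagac
Psmb8: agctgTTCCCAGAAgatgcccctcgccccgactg
Psmb10: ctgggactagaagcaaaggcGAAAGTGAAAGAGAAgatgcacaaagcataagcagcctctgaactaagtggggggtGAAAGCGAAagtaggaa
Psme2: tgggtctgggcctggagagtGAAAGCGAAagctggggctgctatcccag

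In build GRCr8 these stretches lie at chr3:129549160-129549208 on the plus strand (B2m), chr20:4668635-4668683 on the minus strand (Tap1), chr20:4652309-4652357 on the minus strand (Tap2), chr20:4967878-4967923 on the minus strand (Tapbp), chr20:4657248-4657281 on the minus strand (Psmb8), chr19:50743293-50743385 on the minus strand (Psmb10) and chr15:33052776-33052824 on the minus strand (Psme2). Each lies upstream of its gene's annotated start. Tapbp held 2 overlapping ISRE-like matches and Psmb10 held 3, of which 2 overlap. The Psmb8 capitals mark the only GAS-like match. No match was found in the windows of Psmb9 and Psme1. Tap1 and Psmb9 start 457 bases apart and point away from each other, and the ISRE-like letters written for Tap1 lie 337 bases before the start of Psmb9, outside the Psmb9 window.

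The libraries held 12283458 to 15644346 expected counts in retina and 28573828 to 48203050 counts in RPE/choroid. Levels below are CPM, the counts of a gene scaled to the size of its library after TMM normalization, and they compare a gene between groups of a tissue, not one gene with another. Fixed marker lists were summed to check the tissues. Rod photoreceptor markers (11 genes) summed to 33900 to 58800 CPM in the retina libraries and to 615 to 19800 CPM in 8 of the 9 RPE/choroid libraries. In the first RPE/choroid library labelled 8-AG they summed to 55800 CPM, and its RPE markers (9 genes) summed to 5460 CPM against 9160 to 18300 CPM in the other 8. This library stood apart from the others of its tissue, and it is left out in turn beside the results on treated RPE/choroid. Lens markers (9 genes) summed to 151 to 6210 CPM in young retina and to 17.0 to 24.0 CPM in aged retina, and in treated retina to 1750 CPM in the first library and 19.4 and 22.5 CPM in the others. The labels name total RNA for the 3 treated retina libraries and polyA RNA for the other 15, although the protocol describes polyA capture for all, so that in retina the treatment and this label cannot be told apart.

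The first comparison asked how the class I route differed between aged and young retina. All 10 members had higher estimates in aged retina. Of these, 7 were differentially expressed genes (DEGs, called at more than 1.5-fold and an unadjusted P under 0.05): Nlrc5, Psmb9, Psmb8, B2m, Tap1, Psme1 and Psmb10. Psme2 and Tap2 rose by less than that fold but passed at an adjusted p under 0.05, which gave 9 members by that rule, and the tapasin gene Tapbp did not pass either. Among the 14587 genes tested, 6.45% were DEGs higher in aged retina and 7.29% were higher at an adjusted p under 0.05. The median over the members was 1.18 on the log2 scale, beside 0.00 over all genes tested. Adjusted p-values here and below come from edgeR's quasi-likelihood test with Benjamini-Hochberg adjustment over all genes of a comparison.

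**Figure D1:**
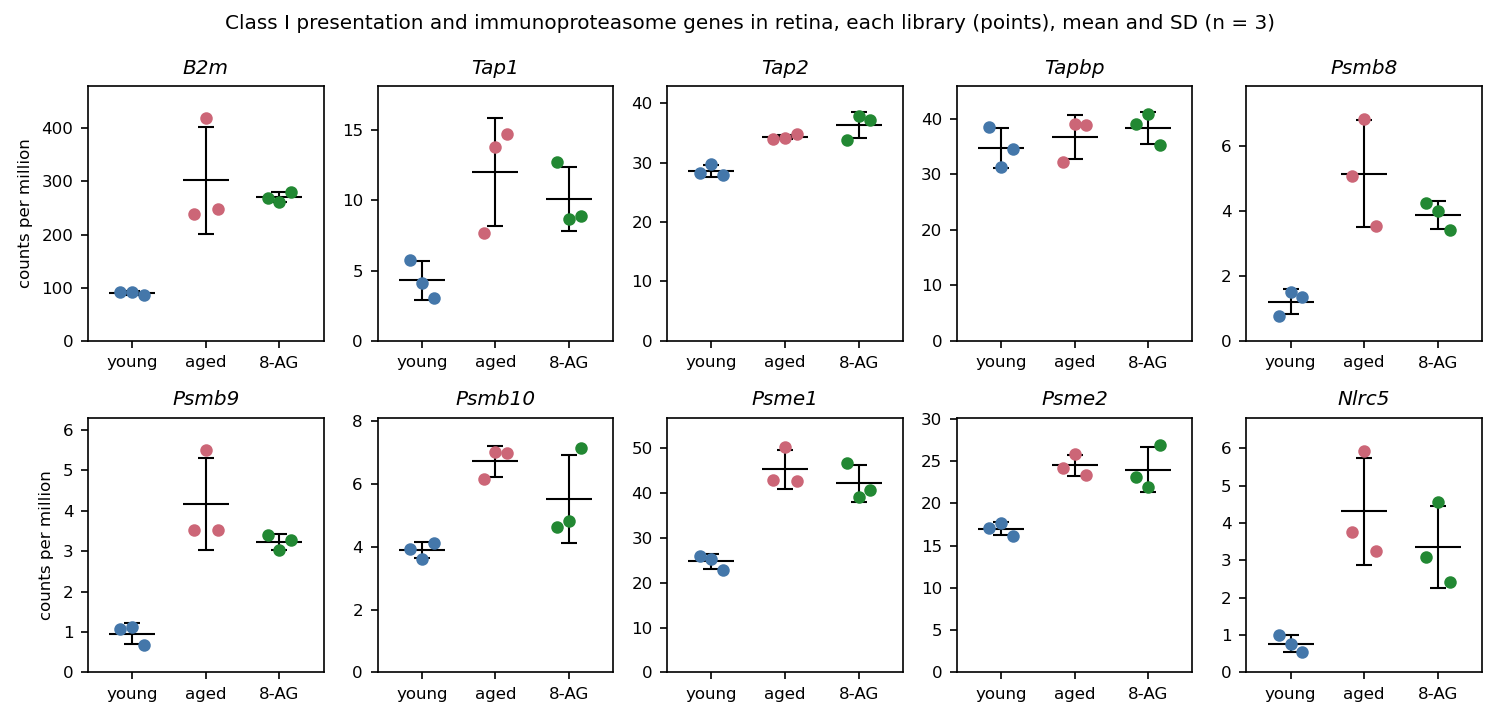
CPM of the 10 members in retina, with 1 point per library for the young, aged and 8-AG groups and the mean with its SD (n = 3) in black; each vertical axis starts at 0. In 9 of the 10 panels all 3 aged points lie above all 3 young points, and the Tapbp points overlap.

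The transactivator Nlrc5 had the largest fold change of the members. It stood at 1.0, 0.753 and 0.541 CPM in young retina, 3.75, 5.93 and 3.25 CPM in aged retina and 3.09, 4.57 and 2.41 CPM in treated retina. Aged and treated libraries all lay above the young ones and overlapped each other. The log2 fold change of aged against young was 2.50 ± 0.34 (SE, adjusted p = 0.0013 in edgeR). Its young libraries held few reads (13, 10 and 8 counts).

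The inducible catalytic subunits Psmb8 and Psmb9 rose together and by similar amounts. Psmb8, which takes the place of Psmb5, was at 0.771, 1.51 and 1.35 CPM in young, 5.07, 6.82 and 3.52 CPM in aged and 4.25, 4.00 and 3.41 CPM in treated retina. Psmb9, which takes the place of Psmb6, was at 1.08, 1.13 and 0.676 CPM in young, 3.51, 5.49 and 3.52 CPM in aged and 3.40, 3.02 and 3.28 CPM in treated retina. For both genes every aged and every treated library was above every young one. The aged against young log2 fold changes were 2.08 ± 0.32 for Psmb8 (SE, adjusted p = 0.0027 in edgeR) and 2.12 ± 0.30 for Psmb9 (SE, adjusted p = 0.0018 in edgeR).

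Psmb10, the third inducible subunit, moved less. Its levels were 3.93, 3.61 and 4.12 CPM in young, 6.16, 7.02 and 6.98 CPM in aged and 4.63, 4.81 and 7.15 CPM in treated retina. Aged libraries were all above young ones, while in the treated group 2 libraries lay between the young and aged ranges and the third lay above the highest aged library. The aged against young log2 fold change was 0.79 ± 0.16 (SE, adjusted p = 0.0092 in edgeR).

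The genes of the proteasome activator had tight groups. Psme1 was at 26.0, 25.4 and 22.8 CPM in young, 43.0, 50.3 and 42.7 CPM in aged and 46.8, 39.1 and 40.6 CPM in treated retina. Psme2 was at 17.1, 17.7 and 16.2 CPM in young, 24.2, 25.9 and 23.4 CPM in aged and 23.1, 21.9 and 26.9 CPM in treated retina. Both genes separated young libraries from all others. Psme1 had the lowest adjusted p of the members in this comparison, with a log2 fold change of 0.87 ± 0.09 (SE, adjusted p = 3.8e-04 in edgeR), and Psme2 had 0.53 ± 0.09 (SE, adjusted p = 0.0032 in edgeR).

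B2m, the class I light chain, was at 91.2, 92.6 and 86.6 CPM in young, 238.0, 418.5 and 248.3 CPM in aged and 269.0, 261.8 and 280.3 CPM in treated retina. The young and treated groups were narrow and far apart, and the second aged library was the highest of all 9. The aged against young log2 fold change was 1.74 ± 0.26 (SE, adjusted p = 0.015 in edgeR). Without that second aged library it was 1.43, with an adjusted p of 8.4e-07 in edgeR. Without any one of the young libraries the adjusted p of B2m was 0.06 to 0.068 in edgeR.

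Both subunits of the peptide transporter rose, but they differed in size of change. Tap1 was at 5.78, 4.14 and 3.04 CPM in young, 7.65, 13.8 and 14.7 CPM in aged and 12.7, 8.64 and 8.89 CPM in treated retina, with a log2 fold change of 1.49 ± 0.31 between aged and young (SE, adjusted p = 0.021 in edgeR). Tap2 was at 28.3, 29.7 and 27.9 CPM in young, 34.0, 34.2 and 34.8 CPM in aged and 33.8, 37.8 and 37.2 CPM in treated retina. Its young libraries lay below all others, and the log2 fold change of aged against young was 0.26 ± 0.07 (SE, adjusted p = 0.036 in edgeR). Tap2 reads are shared with a second identifier (LOC103689996), which held 0.0 to 70.96 expected counts in retina and was added to Tap2 there. With the first identifier alone the aged against young log2 fold change of Tap2 was 0.31 (adjusted p = 0.022 in edgeR). Tap1 and Tap2 were also the members least secure against changes of fit. Tap1 kept an adjusted p under 0.05 in 2 of the 6 fits that left out a library, and Tap2 in 1 of 6. Tap1 lost it without young library 2 or 3 or aged library 2 or 3 (0.055 to 0.09), and Tap2 lost it in all fits but that without the first aged library (0.068 to 0.111). Tap2 also lost it in DESeq2 (adjusted p = 0.141) and in edgeR with no filter on low counts (adjusted p = 0.052).

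Tapbp, the tapasin that joins the transporter and the class I molecule, was at 38.4, 31.2 and 34.5 CPM in young, 32.2, 39.1 and 38.8 CPM in aged and 39.1, 40.8 and 35.2 CPM in treated retina. The 3 groups overlapped, and the log2 fold change of aged against young was 0.08 ± 0.10 (SE, adjusted p = 0.649 in edgeR). Its 95% interval ran from -0.15 to 0.31. In 9 of the 10 members every aged library was above every young one, whereas this held for 18.1% of all genes tested.

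**Figure D2:**
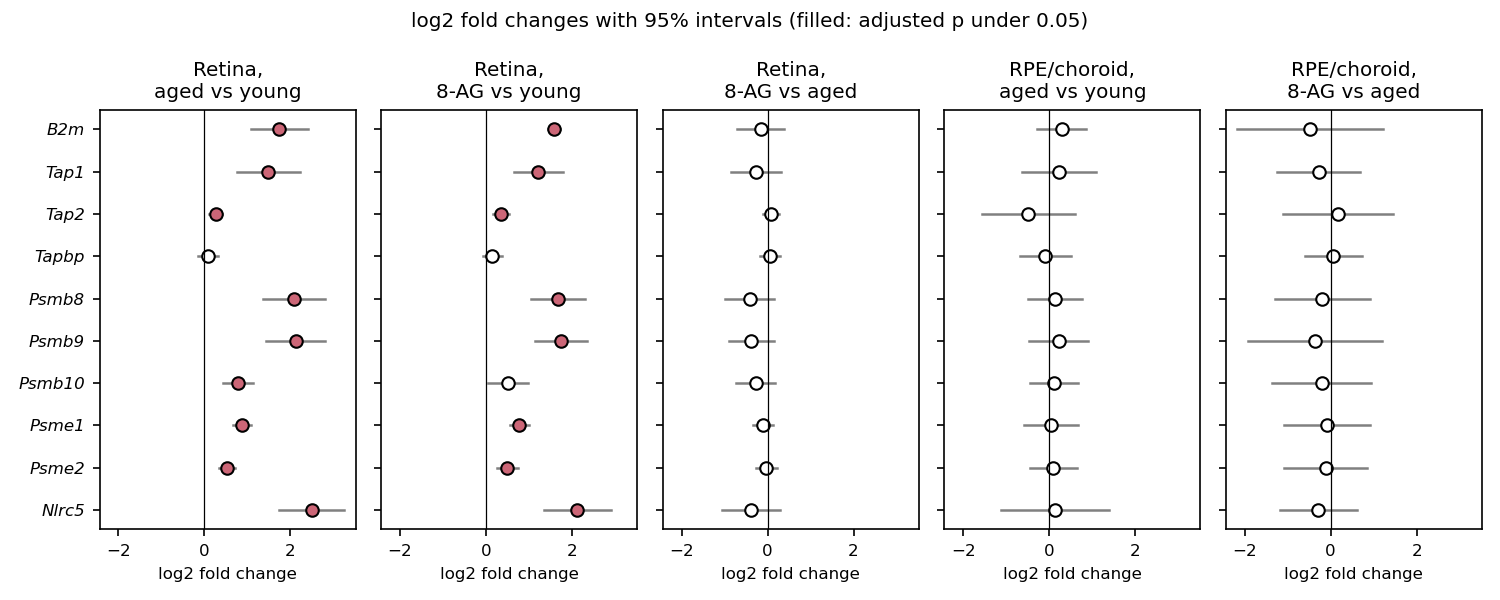
log2 fold changes of the 10 members with 95% intervals in 5 comparisons, on 1 common horizontal axis; filled circles passed an adjusted p under 0.05. In aged against young retina 9 circles are filled and in 8-AG against young retina 8 are filled, while the other 3 panels have none and their intervals include 0.

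The immunoproteasome subunits were then set against the constitutive subunits they replace. Psmb5 was at 46.4, 43.9 and 41.0 CPM in young and 45.7, 53.1 and 48.2 CPM in aged retina. Psmb6 was at 28.0, 28.6 and 24.7 CPM in young and 22.5, 33.9 and 27.4 CPM in aged retina. Psmb7 was at 95.6, 95.6 and 97.8 CPM in young and 88.9, 101 and 91.9 CPM in aged retina. The young and aged ranges overlapped for all 3 partners. The log2 ratio of inducible over constitutive subunit, averaged over the 3 pairs in each library, was -4.76 ± 0.14 in young, -3.25 ± 0.17 in aged and -3.49 ± 0.16 in treated retina (SD, n = 3 each, two-sided exact permutation tests below). The aged group was 1.51 higher than the young (exact permutation p = 0.1, the smallest that 3 against 3 libraries allow) and the treated group 1.28 higher than the young (exact permutation p = 0.1). The treated group was lower than the aged by 0.24 on the same scale (exact permutation p = 0.2). Each pair gave the same order of young below aged, with Psmb10/Psmb7 moving least.

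**Figure D3:**
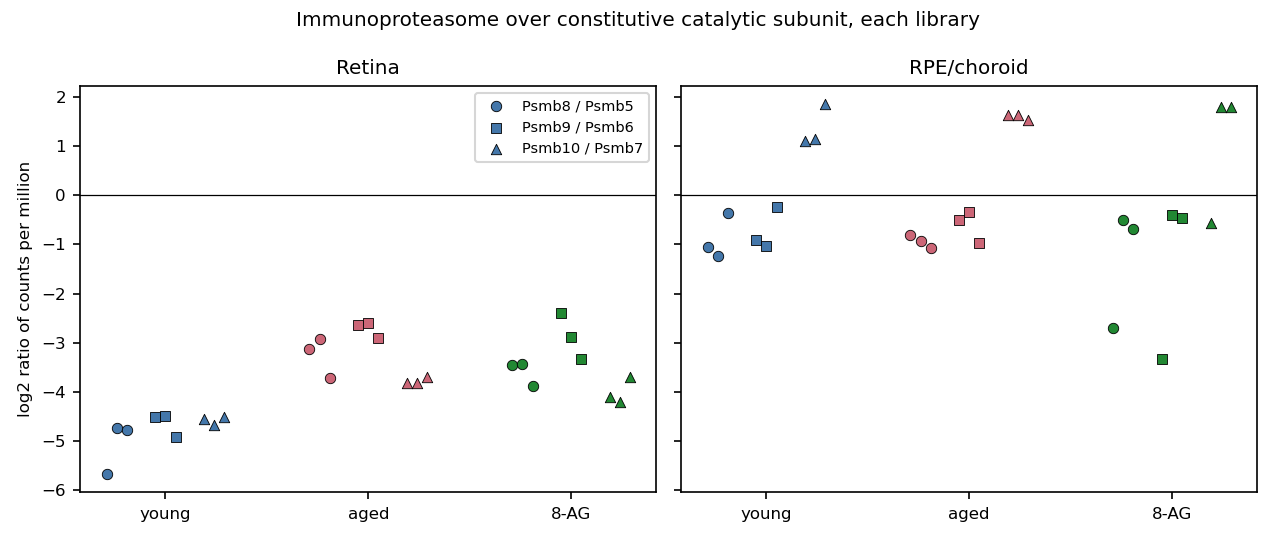
log2 ratio of an immunoproteasome subunit over the constitutive subunit it replaces, for the 3 pairs (circles, squares and triangles) in every library of retina (left) and RPE/choroid (right). In retina the young libraries average -4.76 and the aged ones -3.25; in RPE/choroid the first 8-AG library lies apart at a mean of -2.20.

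The other genes of the route were taken from fixed lists. Class I heavy chains, which bind the peptide and which the rat carries as many RT1 genes, were found under 19 symbols, of which 14 passed the filter on low counts for the aging comparison. Every one of the 14 was higher, 12 were DEGs and 12 passed an adjusted p under 0.05. Their log2 fold changes had a median of 1.58. The 5 with the largest changes among those that passed were RT1-M4 (2.90 ± 0.66), RT1-N3 (2.07 ± 0.41), RT1-CE10 (1.76 ± 0.31), RT1-CE4 (1.75 ± 0.30) and RT1-CE7 (1.74 ± 0.22), as log2 fold changes with SE. In young retina RT1-M4 was at 0, 0.376 and 0.135 CPM and RT1-N3 at 1.08, 0.452 and 0.405 CPM. Such low levels leave the size of their changes uncertain. The summed level of the 19 genes was 145 to 162 CPM in young, 355 to 593 CPM in aged and 326 to 397 CPM in treated retina. Some of these genes are closely alike, and reads can be split among such copies, so that single values are uncertain and the sum is the safer measure.

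Class I-like molecules, which share the fold but serve other purposes, followed in part. Of 4 tested, 3 were DEGs and passed an adjusted p under 0.05: Cd1d1, which presents lipids, with a log2 fold change of 1.22 ± 0.20, Hfe, a regulator of iron uptake, with 1.19 ± 0.33, and Fcgrt, the neonatal Fc receptor, with 0.74 ± 0.17 (SE).

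Peptide loading and trimming genes moved little as a list. Of 14 tested, 1 was a DEG, 4 rose and 2 fell at an adjusted p under 0.05, and the log2 fold changes had a median of 0.12. The 5 largest among those that passed were Tapbpl (0.92 ± 0.18), a tapasin relative that edits peptides, Lap3 (0.56 ± 0.08), an aminopeptidase, Calr (0.35 ± 0.06) and Hspa5 (0.28 ± 0.07), chaperones of the endoplasmic reticulum, and the bleomycin hydrolase Blmh (-0.22 ± 0.06), as log2 fold changes with SE. Tapbpl was at 5.78, 4.89 and 3.99 CPM in young and 8.12, 10.9 and 8.57 CPM in aged retina, and its groups did not overlap.

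The constitutive proteasome was counted in the same way. Of 35 subunits tested, 0 were DEGs and 1 passed an adjusted p under 0.05 (Psmb4, 0.27 on the log2 scale), with a median of 0.03. The partners had log2 fold changes of 0.16 (Psmb5), 0.05 (Psmb6) and -0.04 (Psmb7).

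Regulators of interferon signalling included many that passed. Of 26 listed, 23 were tested, of which 7 were DEGs with a higher and 1 (Ciita, -0.83 ± 0.15) a DEG with a lower level in aged retina, and 10 rose and 1 fell at an adjusted p under 0.05. Among the largest were Socs3 (3.75 ± 0.43), a feedback inhibitor of cytokine receptors, and the transcription factors Irf7 (2.52 ± 0.27), Irf8 (1.88 ± 0.34) and Irf9 (1.39 ± 0.11), as log2 fold changes with SE. Socs3 was at only 0.231, 0.527 and 0.473 CPM in young retina, so the size of its change is uncertain. The whole list had a median of 0.28 on the log2 scale.

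**Figure D4:**
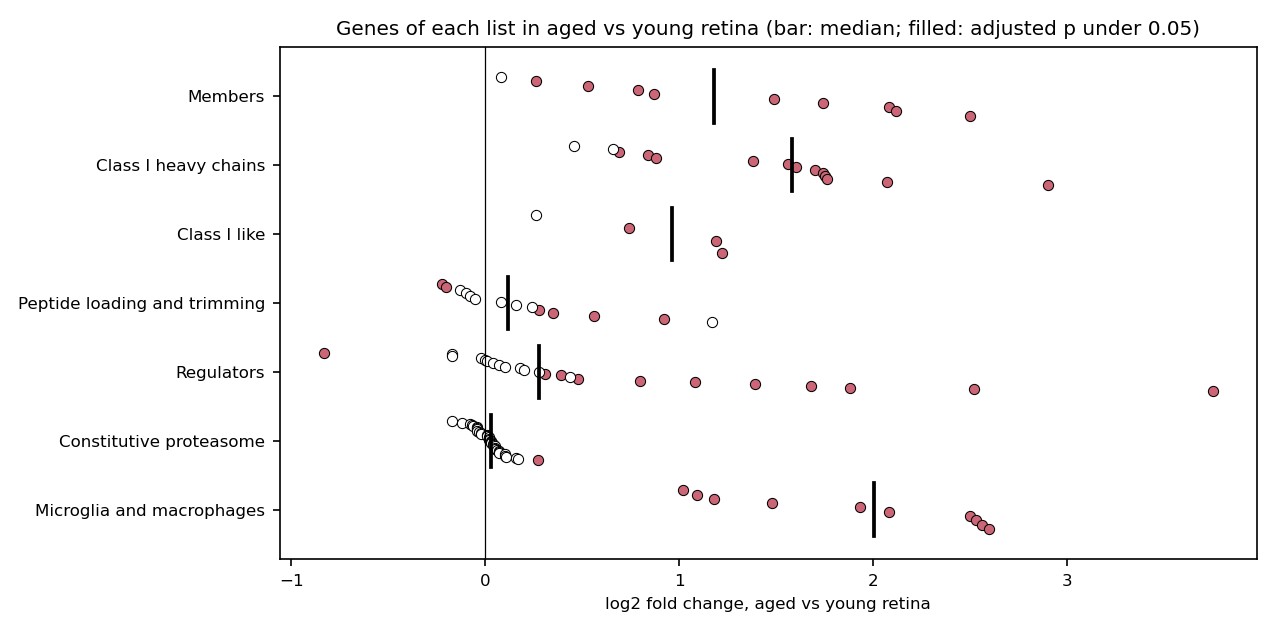
log2 fold change of every tested gene of 7 lists in aged against young retina (horizontal axis), with 1 circle per gene, a bar at the list's median and filled circles for an adjusted p under 0.05. The members' median is 1.18, that of the heavy chains 1.58 and that of the constitutive proteasome 0.03.

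Markers of other cell types also differed between these libraries, and not all in the members' direction. Müller glia markers (7 genes) summed to 6070 to 6350 CPM in young, 5660 to 5750 CPM in aged and 5690 to 5940 CPM in treated retina. Of these 7, 4 had higher and 3 lower estimates in aged than in young retina, with 0 DEGs. Of 11 microglia and macrophage markers, 10 were tested and all 10 were DEGs with higher levels in the aged libraries (median 2.01 on the log2 scale), and their summed level was 40.8 to 42.6 CPM in young, 123 to 211 CPM in aged and 139 to 147 CPM in treated retina. None of the 11 was at 0 in every retina library. Rod markers summed to 53900 to 58800 CPM in young and 33900 to 38500 CPM in aged retina. RPE markers (9 genes) summed to 33.2 to 146 CPM in young, 79.2 to 216 CPM in aged and 173 to 356 CPM in treated retina. Of these 9, 8 had higher estimates in aged than in young retina with 0 DEGs, and all 9 had higher estimates in treated than in young retina with 2 DEGs. Endothelial markers had higher estimates in aged than in young retina for 6 of 7 tested, with 1 DEG and a median of 0.45, while their sum overlapped between the groups (642 to 704 CPM in young, 592 to 711 CPM in aged and 528 to 664 CPM in treated retina). T and natural killer cell markers (10 genes) summed to at most 0.308 CPM in young retina and to 1.33, 10.7 and 0.968 CPM in the aged libraries, too low for any of them to be tested. Erythrocyte markers were also highest in the second aged library, at 186 CPM against 38.9 and 42.9 CPM. In bulk tissue, more cells of a type and more RNA per cell cannot be told apart, and the part of these cell types in the members' change was not tested. Without the second aged library the number of DEGs among the members was again 7, beside 5.62% of all genes called higher in that fit. At an adjusted p under 0.05 it was 7, beside 768 of 14758 genes that were higher.

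The comparison that the treatment addresses is 8-AG-treated against aged retina. No member was a DEG, in edgeR or DESeq2, and 0 passed an unadjusted P under 0.05 in edgeR, while 0.957% of the 14630 genes tested were DEGs in either direction. The members' log2 fold changes lay between -0.41 (Psmb8) and 0.08 (Tap2), 8 below 0 and 2 above, with a median of -0.21 beside -0.00 over all genes. Their 95% intervals together spanned -1.06 to 0.38, and all 10 adjusted p-values were 0.996 in edgeR. An interval this wide for Nlrc5 (-1.06 to 0.30) does not show that the groups were alike. Psmb9 was the 1 member whose treated libraries all lay below its aged ones, at 3.02 to 3.40 CPM against 3.51 to 5.49 CPM, as did 3.96% of all genes tested. Its log2 fold change was -0.38 ± 0.23 (SE, adjusted p = 0.996 in edgeR).

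Single aged libraries moved these values. Without the second aged library the members' median was -0.04, and the estimate for B2m changed from -0.16 to 0.15. Without the third aged library 1 member, Psmb8, was called a DEG, with a log2 fold change of -0.62 (adjusted p = 0.999 in edgeR), beside 0.475% of all genes called lower in that fit. Of the 14 heavy chains tested, 13 had lower estimates in treated than in aged retina, with a median of -0.23, and 1 was a DEG (RT1-T24-3, -0.93 ± 0.32 on the log2 scale with SE, adjusted p = 0.996 in edgeR). RT1-S3 (-0.53 ± 0.12, adjusted p = 0.753 in edgeR) and RT1-T24-4 (-0.47 ± 0.17, adjusted p = 0.996 in edgeR) had an unadjusted P of 0.0016 and 0.021 at less than that fold. RT1-S3 was at 30.0, 32.9 and 41.4 CPM in aged and 24.3, 24.9 and 23.1 CPM in treated retina, and its groups did not overlap. These 3 genes were named after their values were seen. Microglia and macrophage markers had 0 DEGs of 11 tested and a median of -0.13. Endothelial markers had lower estimates for 7 of 7 tested, with 0 DEGs and a median of -0.33, and RPE markers had higher estimates for 9 of 9, with 0 DEGs and a median of 0.73. The part of these cell types in the members' values was not tested.

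Treated retina was then set against young retina, a comparison that shares its young libraries with the first and its treated libraries with the second. All 10 members were higher, 6 were DEGs and 8 passed an adjusted p under 0.05, beside 6.50% and 7.78% of the 14541 genes tested for the same 2 rules. In 9 members every treated library was above every young one, as in 17.8% of all genes. The DEGs were B2m, with a log2 fold change of 1.58 ± 0.06 (SE, adjusted p = 1.6e-06 in edgeR), Nlrc5 with 2.12 ± 0.35, Psmb9 with 1.75 ± 0.27, Psmb8 with 1.67 ± 0.28, Tap1 with 1.22 ± 0.25 and Psme1 with 0.77 ± 0.10. Psme2 (0.50 ± 0.11) and Tap2 (0.34 ± 0.08) passed the adjusted p only. Tap2 kept an adjusted p under 0.05 in 2 of the 6 fits that left out a library, and Tap1 and Psme2 in 5 of 6 each. Psmb10 had 0.51 ± 0.21 with an adjusted p of 0.137 and Tapbp 0.14 ± 0.10 with an adjusted p of 0.386, both in edgeR. The median was 1.0, beside 1.18 in aged against young retina.

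In RPE/choroid no difference of a member between groups exceeded the spread between libraries. None of the 10 was a DEG in aged against young RPE/choroid, beside 1.35% of 16047 genes tested in either direction, and 0 members passed an unadjusted P under 0.05 in edgeR. DESeq2 also called 0 members in each of the 3 RPE/choroid comparisons. In none were the groups free of overlap, which they were in 7.10% of all genes. The log2 fold changes ran from -0.48 (Tap2) to 0.29 (B2m), with a median of 0.12 beside 0.02 over all genes, and their 95% intervals together reached from -1.56 to 1.39.

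**Figure D5:**
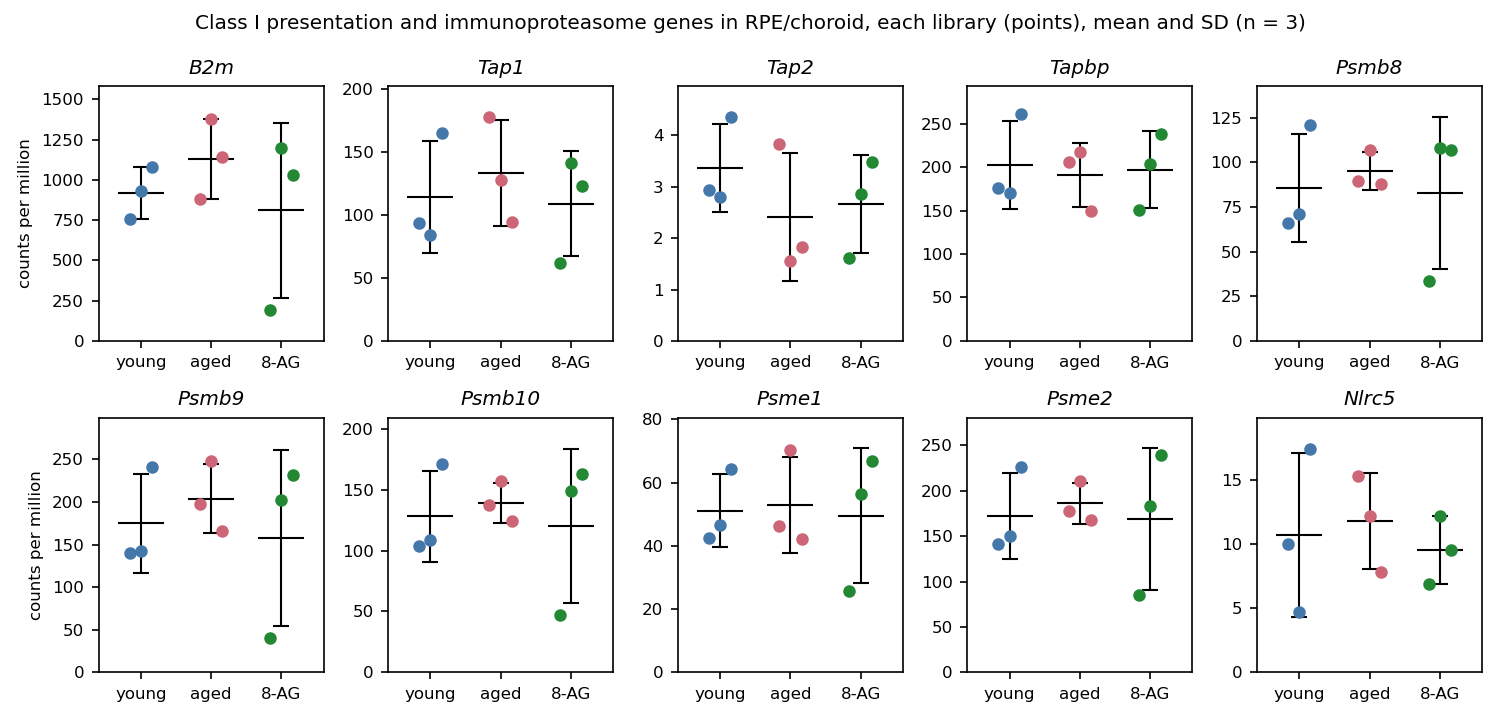
CPM of the 10 members in RPE/choroid, with 1 point per library for the young, aged and 8-AG groups and the mean with its SD (n = 3) in black; each vertical axis starts at 0. In every panel the groups overlap, and the leftmost 8-AG point (the first library) is the lowest of its group.

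B2m showed the spread of the tissue. It was at 755, 930 and 1080 CPM in young, 881, 1380 and 1140 CPM in aged and 194, 1200 and 1030 CPM in treated RPE/choroid. The young and aged ranges overlapped, and the first treated library lay far below the other 8. Its log2 fold change between aged and young was 0.29 ± 0.24 (SE, adjusted p = 1 in edgeR).

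The inducible proteasome subunits had the same form. Psmb8 was at 65.9, 71.0 and 121 CPM in young, 89.7, 107 and 88.0 CPM in aged and 33.8, 108 and 107 CPM in treated RPE/choroid. Psmb9 was at 139.9, 142.2 and 241.5 CPM in young, 198.2, 247.5 and 166.3 CPM in aged and 40.1, 201.6 and 231.6 CPM in treated RPE/choroid. Psmb10 was at 104, 109 and 171 CPM in young, 137, 157 and 124 CPM in aged and 47.0, 149 and 163 CPM in treated RPE/choroid. The third young library was the highest young one for all 3, and the first treated library the lowest of all 9.

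The activator and transporter genes repeated this pattern. Psme1 was at 42.6, 46.5 and 64.2 CPM in young, 46.2, 70.3 and 42.2 CPM in aged and 25.6, 56.4 and 66.8 CPM in treated RPE/choroid. Psme2 was at 141, 150 and 226 CPM in young, 178, 211 and 168 CPM in aged and 85.2, 183 and 239 CPM in treated RPE/choroid. Tap1 was at 93.8, 83.9 and 165 CPM in young, 178, 128 and 94.3 CPM in aged and 61.5, 141 and 123 CPM in treated RPE/choroid. In each of these genes the aged range lay within or across the young one.

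Tapbp was at 176, 170 and 261 CPM in young, 206, 217 and 150 CPM in aged and 151, 203 and 238 CPM in treated RPE/choroid. Nlrc5 was at 10, 4.67 and 17.4 CPM in young, 15.3, 12.2 and 7.83 CPM in aged and 6.91, 12.2 and 9.54 CPM in treated RPE/choroid. Both genes had all 3 groups in overlap. Tap2 was at 2.94, 2.80 and 4.35 CPM in young, 3.84, 1.56 and 1.82 CPM in aged and 1.62, 2.86 and 3.49 CPM in treated RPE/choroid, from the first identifier alone, and the second identifier held 36.0 to 169.0 counts beside 52.0 to 208.0 for the first, so that Tap2 is uncertain here. Without the first aged library Tap2 was the 1 member called in aged against young RPE/choroid, with a log2 fold change of -1.01 (adjusted p = 0.998 in edgeR), beside 1.06% of 16449 genes called lower in the same fit.

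In 8-AG-treated against aged RPE/choroid 0 members were DEGs and 0 passed an unadjusted P under 0.05 in edgeR, beside 1.65% of 16257 genes called in either direction. None had groups free of overlap, beside 3.96% of all genes. The median was -0.20 and became 0.17 without the first treated library, and that of treated against young RPE/choroid went from -0.08 to 0.28. Rod markers were mostly high in the libraries of a group where the members were low. They summed to 17800, 19800 and 2000 CPM in young, 11500, 615 and 16800 CPM in aged and 55800, 895 and 872 CPM in treated RPE/choroid, so that without its first library the treated group was below every young and 2 of the 3 aged libraries in rod level. The young library with the lowest rod level was the highest of its group in 10 members and the aged one in 7, and the treated library with the highest rod level was the lowest of its group in 10. The part of the rod level in the turn of the medians was not tested. In treated against young RPE/choroid 0 members were DEGs and 0 passed an unadjusted P under 0.05 in edgeR, beside 1.99% of 16215 genes, and none had groups free of overlap, beside 5.94% of all genes. With the summed rod level as a covariate, 3 members were DEGs lower in treated than in young RPE/choroid, B2m at -1.05, Psmb9 at -0.95 and Psmb10 at -0.62 on the log2 scale, with adjusted p-values of 0.165, 0.149 and 0.149 in edgeR. That fit called 12.5% of all genes lower (2030 of 16215), and 0 genes passed an adjusted p under 0.05 in it. The 95% intervals of treated against aged RPE/choroid were wide (-2.17 to 1.22 for B2m), and a P that misses the threshold there does not show that the groups were alike.

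Markers of several other cell types, but not of all, were low in the library with low members. Müller glia markers summed to 9320 CPM there, within the 7710 to 14700 CPM of the other 8 libraries. Erythrocyte markers summed to 168 CPM there, within 45.9 to 1020 CPM, and rod markers were highest there. In the first treated RPE/choroid library the microglia and macrophage markers summed to 449 CPM against 1250 to 2240 CPM in the other 8 libraries, the T and natural killer cell markers to 14.7 CPM against 102 to 194 CPM, the endothelial markers to 524 CPM against 1690 to 3470 CPM, and the 19 heavy chains to 1900 CPM against 4520 to 6610 CPM. The part of these cell types in the level of the members was not tested. The mean log2 ratio of inducible over constitutive subunit was -2.20 in that library and -0.37 to 0.42 in the other 8. Over the groups it was -0.08 ± 0.43 in young, 0.02 ± 0.16 in aged and -0.56 ± 1.42 in treated RPE/choroid (SD, n = 3 each), and the exact permutation p was 0.8 for aged against young and 1 for treated against aged. The treated group was 0.59 below the aged one on this scale with all libraries, and without its first library the direction turned, with the other 2 libraries at 0.21 and 0.30 and 0.23 above the aged mean (exact permutation p = 0.2, the smallest that 2 against 3 libraries allow). Against the young group the difference went from -0.48 (exact permutation p = 0.8) to 0.34 (exact permutation p = 0.6) in the same way.

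Since a change called in 1 tissue and not in the other is not thereby shown to differ, the aging change was compared between the tissues with an interaction term over 16792 genes. All 10 members had a larger estimate in retina, with a median difference of 1.06 on the log2 scale. At an unadjusted P under 0.05 there were 7 members, beside 6.20% of all genes with a larger change in retina. None passed an adjusted p under 0.05, which 0.155% of all genes did in this direction. The lowest adjusted p-values in edgeR were 0.109 for Psmb9 (1.92 ± 0.43), 0.122 for Psmb8 (1.95 ± 0.45) and 0.128 for B2m (1.46 ± 0.35), as differences of log2 fold changes with SE. The libraries of the tissues were made with different kits and counted separately, so levels were not compared between them.

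Within a tissue the members went up and down together to different degrees, which was described with Pearson's r over the 9 libraries of log2 CPM against the sum of the other 9 members' standardized values. In retina r was 0.988 for B2m, 0.982 for Psmb9, 0.975 for Psme1 and 0.419 for Tapbp. In RPE/choroid it was 0.968 for Psmb10, 0.959 for Psmb8, 0.643 for Nlrc5 and 0.538 for Tap2. Over the 8 RPE/choroid libraries without the first treated one, r was 0.979 for Psmb10, 0.934 for Psmb8, 0.690 for Nlrc5 and 0.185 for Tap2, and for B2m it went from 0.819 to 0.454. The 9 points share the step from young to aged libraries in retina, and in RPE/choroid they share the low first treated library. Outside the members, the 5 genes most like the members' mean in retina among 11939 were Sqor (0.998), Il17rb (0.994), Lad1 (0.994), Gbp2 (0.990), an interferon-induced GTPase, and Fgf2 (0.989). In RPE/choroid they were Srgap2 (0.988), Ccnd3 (0.981), Irf9 (0.980), Dxo (0.978) and Micall2 (0.977) among 12031. Without the first treated library r of these 5 genes was 0.920 (Micall2) to 0.975 (Srgap2).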

How the data were processed

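For retina the authors deposited expected counts from RSEM, without normalization, and 11.5% of them were not whole and were rounded. For RPE/choroid they deposited raw counts of reads per gene. A table of TMM-normalized retina signal deposited by the authors served to pair symbols with identifiers. The submitters' processing notes name Bowtie2 2.1.0, RSEM 1.2.15 and edgeR with build Rnor_6.0. Tables of the authors' own comparisons (fold changes and p-values) were not used. RT1 symbols whose identifier carries another name in the RPE/choroid table were left out.

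Each pair of groups was fitted to its 6 libraries with edgeR 4.0.16 and R version 4.3.3 (filterByExpr, TMM, glmQLFit with robust=TRUE, glmQLFTest), over all genes. A fitted log2 fold change uses edgeR's own prior count, and log2 CPM a prior count of 2. SE is the absolute log2 fold change divided by the square root of F. The fit was tested on simulated data. Most-alike genes had a mean log2 CPM of at least 1. Alternatives included DESeq2 1.42.0, RLE size factors, other filters, 1 fit per tissue, a replicate block and leaving out each library; the first Tap2 identifier alone and the correlations without the first treated RPE/choroid library were added after the data were seen. Named genes are all members, up to 5 genes per list with the largest log2 fold change at an adjusted p under 0.05 in aged against young retina, the partners Psmb5, Psmb6 and Psmb7 and the most-alike genes; Ciita, Psmb4, Klrd1, RT1-T24-3, RT1-S3 and RT1-T24-4 were named for a count after their values were seen. A gene that meets this rule is not reported here. The members and lists were chosen with earlier results of these data known. Python 3.11.15, pandas 2.3.3, SciPy 1.17.1 and matplotlib 3.10.9 were used.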

Additional observations from a re-analysis of the deposited data

How the results depend on the processing

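The recomputed values that answer a comparison numbered 237, among them exact permutation tests of the subunit ratio. Those tests cannot go below 0.1 with 3 libraries per group, so their side of the threshold was fixed in advance. Of the 237, 234 kept their side of the threshold or stayed within 1.5 times the count. The exceptions were the members called DEGs with the summed rod level as a covariate in treated against young RPE/choroid, where 3 were called in place of 0 while the same fit called 12.5% of all genes lower, and fits without 1 library, over which the calls ranged from 0 to 1 in treated against aged retina and from 0 to 1 in aged against young RPE/choroid; the cause was not tested. In aged against young retina the DEGs among the members numbered 7 in each of the 6 fits that left out a library, and 6 to 9 members passed the adjusted p. In those fits 829 to 1022 of 14758 to 14873 genes were DEGs with a higher level. Higher at an adjusted p under 0.05 were 668 to 1106 genes. No value that passed a test turned its direction. Differences that did not pass often turned when 1 library was left out. Among the 10 members, 7 did so in aged against young, 7 in treated against aged and 9 in treated against young RPE/choroid, 3 in treated against aged retina and 1 in the interaction. The subunit ratio ranged from -0.04 to 0.35, -1.02 to 0.23 and -0.91 to 0.34 in these RPE/choroid comparisons, and the members' median from -0.03 to 0.38, -0.41 to 0.17 and -0.34 to 0.28. Among single members 22 recomputed values lost an adjusted p under 0.05 with the same direction, all of B2m, Tap1 or Tap2 in aged against young retina and of Tap1, Tap2 or Psme2 in treated against young retina. The highest adjusted p in edgeR or DESeq2 among these was 0.141, for Tap2 with DESeq2. A filter of 10 counts in every library left out 1 member, Nlrc5, and gave a median log2 fold change of 0.88 in aged against young retina and 0.78 in treated against young retina.

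Same-numbered libraries did not deviate together in every pair (correlations from -0.648 to 0.743), so the numbers were not taken as pairs. With a replicate block, 7 members were DEGs and 7 passed the adjusted p in aged against young retina (Tap1 at 0.123 and Tap2 at 0.084 in edgeR no longer did), 6 and 8 in treated against young retina, and 0 in every RPE/choroid comparison and in treated against aged retina. Over all 14587 genes of that fit, 931 were DEGs higher in aged than in young retina and 910 were higher by the adjusted p. In treated against young retina these were 928 and 1019 of 14541 genes. Few counts limit Nlrc5, Psmb8 and Psmb9 in young retina.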

Other observations

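Genes of cells that read class I, such as natural killer receptors and T cell co-receptors, were measured as a list of 12. In retina only 1, Klrd1, had enough counts to be tested, with a log2 fold change of 0.03 in aged against young retina. In RPE/choroid all 12 were tested and all 12 had higher estimates in aged than in young tissue, with a median log2 fold change of 0.31, yet 0 were DEGs and 0 passed an adjusted p under 0.05 in edgeR (lowest unadjusted P = 0.228). Their summed level was 104 to 172 CPM in young, 138 to 199 CPM in aged and 15.6, 177 and 189 CPM in treated RPE/choroid, the lowest value being that of the first treated library.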
